A study of Homo sapiens with 8 samples.

Results

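AP-1 is the group of leucine-zipper transcription factors that bind DNA as dimers of Jun, Fos, ATF and BATF proteins, and the 10 genes followed here were the Jun genes JUN, JUNB and JUND, the Fos genes FOS, FOSB, FOSL1 and FOSL2, and ATF3, BATF and BATF3. Their peaks were taken from 1 list of 15412 Cut&Run peaks of PML::RARA, the fusion of the nuclear body protein PML with the retinoic acid receptor alpha that drives acute promyelocytic leukaemia. A peak was taken when the authors had labelled it with the promoter of an AP-1 gene, or when it carried no gene label and its centre lay within 50 kb of the centre of such a peak. This gave 40 peaks, of which 9 carried an AP-1 label and 31 carried none.

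In Cut&Run, an antibody tethers a nuclease to chromatin and the released fragments are sequenced. The cells were U937-PR9, a monocytic line whose PML::RARA transgene is under a zinc-inducible promoter. Induced cells had 100 μM ZnSO4 for 5 h and uninduced cells did not, and anti-PML::RARA and anti-RARA antibodies were applied to 2 replicates of each, 8 libraries in all. The values below come from the induced cells with the anti-PML::RARA antibody, as the peaks that the authors found in both replicates. Uninduced cells were not analysed here. Zinc and PML::RARA came together in the induced cells, and no cells had zinc without the transgene. A response to zinc and a response to PML::RARA therefore cannot be told apart, and 1 cell line stands for all results. Each peak has 1 deposited value with no replicate values behind it, so replicate error is unknown and conditions could not be compared. Depth is unknown. Of 10 myeloid marker genes, 7 carried a promoter label and CD33, LYZ and FCGR1A did not, and of 10 markers of other lineages only PECAM1 did. A promoter label is not a measure of expression.

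Jun proteins pair with each other or with Fos proteins, which cannot pair among themselves, and the dimers bind the AP-1 site. ATF-containing dimers prefer the cyclic AMP response element (CRE), a site with 1 more base between its arms. FOS, FOSB and JUNB are immediate early genes that growth factors, cytokines and stress switch on within minutes through serum response factor, which binds the CArG box, and through CREB and ATF proteins. The JUN promoter carries a variant octamer that Jun and ATF proteins bind. In monocytes and macrophages, AP-1 acts beside PU.1 and C/EBP at many enhancers, and BATF and BATF3 are known from lymphocytes and dendritic cells, where they pair with Jun proteins and bind with IRF factors.

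Letter matches to such sites lay inside several of the promoter peaks. A selection is shown to place the peaks relative to them, and whether these matches control the genes was not tested. Each is printed from the hg19 genome sequence, 5′ to 3′ on the strand of its gene, with the matched site in capitals: the octamer of JUN, the cyclic AMP response element of JUND, the CArG boxes of FOS and JUNB, the response element followed by a CArG box of FOSB, and the AP-1 sites at the start sites of FOSL1 and FOSL2.
JUN, chr1:59249739-59249826, minus strand: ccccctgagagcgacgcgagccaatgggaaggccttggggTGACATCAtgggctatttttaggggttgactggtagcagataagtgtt
JUND, chr19:18392585-18392672, minus strand: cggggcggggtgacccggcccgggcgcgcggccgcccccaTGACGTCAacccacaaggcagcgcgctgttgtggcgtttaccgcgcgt
FOS, chr14:75745177-75745266, plus strand: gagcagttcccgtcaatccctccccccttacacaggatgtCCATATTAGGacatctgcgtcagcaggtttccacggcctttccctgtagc
JUNB, chr19:12900722-12900811, plus strand: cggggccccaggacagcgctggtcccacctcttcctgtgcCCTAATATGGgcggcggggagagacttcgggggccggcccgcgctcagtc
FOSB, chr19:45970889-45971029, plus strand: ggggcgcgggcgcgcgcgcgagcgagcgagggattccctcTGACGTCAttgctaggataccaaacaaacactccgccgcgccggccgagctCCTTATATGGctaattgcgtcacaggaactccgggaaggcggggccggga
FOSL1, chr11:65667843-65667871, minus strand: cacggcgcgggTGAGTCAgaacccagcag
FOSL2, chr2:28615718-28615746, plus strand: tgccattgtagTGACTCAtctcgggcaga

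PML::RARA peaks carried the promoter label of 9 of the 10 AP-1 genes, or 90.0% (Wilson 95% interval 59.6% to 98.2%), and BATF3 was the gene without one. Among 20149 protein-coding genes, 6025 had such a label, which is 29.9%. Every labelled AP-1 gene had 1 promoter peak, and in all 9 the peak covered the canonical start site of the gene in GENCODE. The point of largest signal, called the apex, lay within 1 kb of a start site of the gene in 7 of the 9 and within 150 bp in 6. JUN and JUNB were the exceptions at 1 kb. The authors gave a label where the apex overlapped a promoter, so closeness to a start is largely built into the label. The matching shares of all labelled peaks were not computed, so these counts are not a trait of AP-1 genes.

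The AP-1 promoter peaks were wide. Their median width was 2615 bp (order-statistic 95% interval 1557 to 3849 bp, n = 9 peaks), against 1108 bp for all 7169 labelled peaks, whose quartiles were 770 and 1539 bp. Of the 9, 8 were at or above the median of all labelled peaks. A width of 2500 bp or more was reached by 5 of the 9, namely JUN, JUNB, FOS, FOSB and FOSL2, whereas 4.94% of all labelled peaks reached it. With the line at 3000 bp, only JUNB and FOSL2 remained, against 2.51% of labelled peaks. These widths describe 9 peaks of 1 list and were not tested, and the 2500 bp line was set after the widths were known.

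Their heights stood apart less. Peak height here is the largest signal within a peak, in units of the deposited signal track. The median height of the 9 AP-1 promoter peaks was 31 (interval 28 to 39) against 26 for all labelled peaks, whose quartiles were 20 and 35, and 8 of the 9 were at or above that median. The highest was FOSL2 at 47, and 542 labelled peaks were as high or higher, itself included. The total signal, summed over the bases of the peak, had a median of 23014 in the 9 and 10082 in all labelled peaks.

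**Figure D1:**
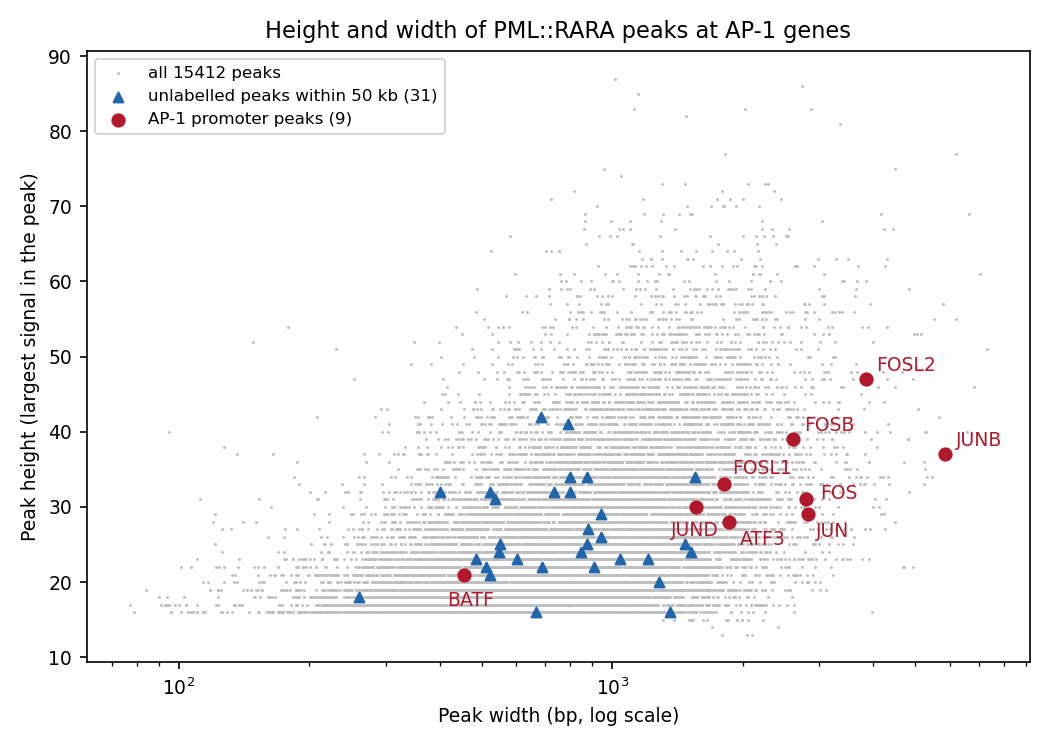
Height (largest signal in the peak) against width (bp, log scale) for all 15412 peaks in grey, the 31 unlabelled peaks within 50 kb of an AP-1 promoter peak as blue triangles and the 9 AP-1 promoter peaks as red circles. FOSL2, FOSB, JUNB, FOS and JUN lie at the wide edge of the cloud at heights of 29 to 47, and BATF lies at 454 bp and a height of 21.

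The Jun genes had promoter peaks of 29 to 37 in height and 1557 to 5858 bp in width. Ranks below count from 1 at the highest or widest of the 15412 peaks, and a span of ranks is shared by peaks of equal height. JUNB, a Jun protein that can restrain growth and whose loss causes myeloproliferation in mice, had the widest of all AP-1 peaks, chr19:12899243-12905100. It was 5858 bp wide, which ranked 8 in the whole list, with a height of 37 (rank 2529 to 2814) and the largest total signal of the 9, 57379 (rank 46). The peak covered 100% of the 1830 bp gene, and its apex lay 1163 bp upstream of the start site. The CArG box printed above lay 370 bp from that apex, 1538 bp upstream of the start.

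JUN, the founding member of the group and the strongest activator among the Jun proteins, had a peak at chr1:59247804-59250627. It was 2824 bp wide (rank 277), wider than 98.2% of the list, and 29 in height (rank 5211 to 5665), higher than 63.2%. Its apex lay in the single exon, within the coding sequence, 1697 bp downstream of the start site. The octamer printed above begins 67 bp upstream of the start and lay inside the peak but 1761 bp from the apex. JUND, the Jun gene expressed most evenly across tissues, had a peak at chr19:18391845-18393401 of 1557 bp (rank 2285 to 2293) and height 30 (rank 4820 to 5210). The JUND apex lay 51 bp upstream of the start and 146 bp from the response element, which begins 200 bp upstream. A separate peak labelled with the microRNA gene MIR3188 lay 215 bp away, with its apex in the JUND 3′ UTR. It was 1514 bp wide and 22 in height, and if both were read as 1 peak it would span 3286 bp.

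The Fos genes had promoter peaks of 31 to 47 in height and 1810 to 3849 bp in width, and FOSL2 and FOSB were the highest of the 9. FOSL2 and FOSL1 encode Fos proteins without the strong activation domain of FOS. The FOSL2 peak was at chr2:28612816-28616664, with a height of 47 (rank 890 to 988), a width of 3849 bp (rank 75) and a total signal of 55744 (rank 54). It was higher than 93.6% and wider than 99.5% of the list. The FOSL2 apex lay 77 bp upstream of the canonical start and 84 bp from the AP-1 site, which begins 4 bp downstream of that start. FOSB at chr19:45970696-45973310 had a height of 39 (rank 2104 to 2312) and a width of 2615 bp (rank 380 to 382). Its apex lay in intron 1 of 4, 1405 bp downstream of the canonical start and 475 bp from the nearest start of another annotated transcript, while the response element and the CArG box lay at the other end of the peak, beginning 325 and 274 bp upstream.

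FOS and FOSL1 had peaks close in height, at 31 and 33. FOS, the classical serum-response gene, had its peak at chr14:75743475-75746268, with a width of 2794 bp (rank 289 to 290) and a height of 31 (rank 4397 to 4819). Its apex lay 81 bp upstream of the start, and the CArG box, which begins 314 bp upstream, lay 228 bp from the apex. FOSL1 at chr11:65666536-65668345 had a height of 33 (rank 3709 to 4033) and a width of 1810 bp (rank 1480 to 1484). Its apex lay 83 bp upstream of the canonical start and 85 bp from the AP-1 site at that start. Another AP-1 match in the FOSL1 peak began 996 bp downstream of the start, 1082 bp from the apex.

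ATF3 and BATF had the lowest promoter peaks of the 9 by height, though ATF3 was wider than JUND and FOSL1. ATF3, a stress-induced gene whose product restrains inflammatory transcription in macrophages, had a peak at chr1:212781410-212783269 of 1860 bp (rank 1351 to 1355) and height 28 (rank 5666 to 6154), with the apex 92 bp upstream of the canonical start. BATF had the narrowest and lowest of the 9, at chr14:75988653-75989106, with a width of 454 bp (rank 12667 to 12681) and a height of 21 (rank 9879 to 10690). It was wider than only 17.7% of the list, and its apex lay 58 bp downstream of the start, in the 5′ UTR of exon 1 of 3. None of the AP-1 site, the response element, the octamer and the CArG box occurred inside the ATF3 or BATF promoter peaks.

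BATF3 had no promoter label, and no peak overlapped the gene at chr1:212859759-212873182, which lies on the minus strand. The closest peak lay 2775 bp beyond its 3′ end and 16198 bp from its start site, at chr1:212856686-212856984, with a height of 16, higher than only 0.130% of the list. Another peak of height 18 lay at chr1:212844623-212845007. Neither was counted among the 40, since neither lay within 50 kb of a labelled AP-1 peak. The list holds only peaks that passed the authors' thresholds, so signal below them at BATF3 was not seen.

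**Figure D2:**
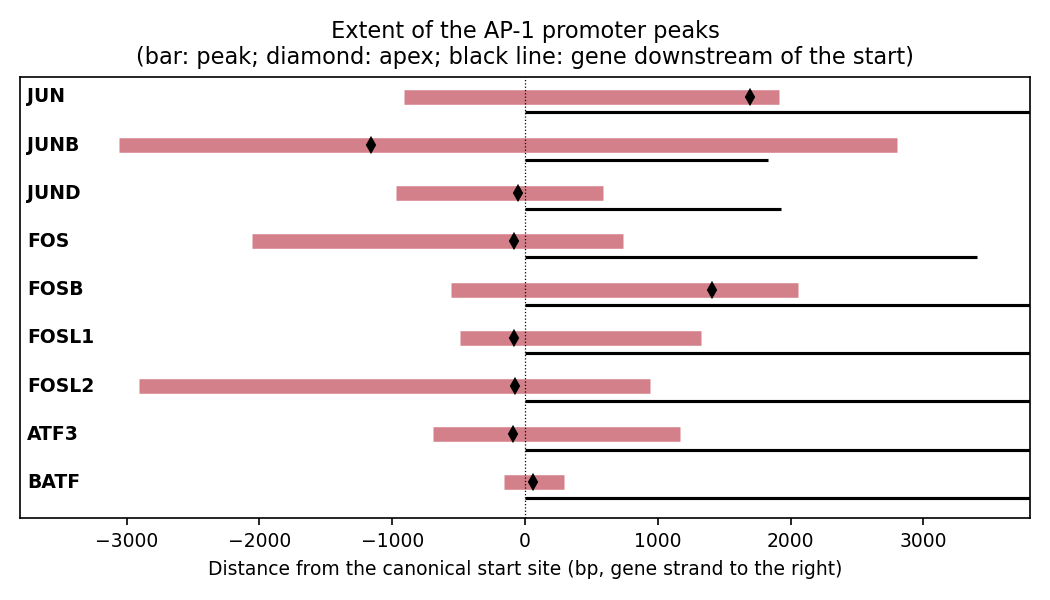
Extent of the 9 AP-1 promoter peaks relative to the canonical start site (bp, direction of transcription to the right), with the peak as a red bar, its apex as a black diamond and the annotated gene as a black line. All 9 bars cross the start site, the bar of JUNB passes both ends of its gene, and the apexes of JUN, JUNB and FOSB lie more than 1000 bp from the canonical start.

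The genes around AP-1 were labelled at shares between those of all protein-coding genes and of the AP-1 genes themselves. The lists were chosen from general knowledge of the pathway, but with earlier results of these data known, and their counts were not tested. Of 12 other proteins that dimerize with AP-1 factors, 6 had a label (50%, 25.4% to 74.6%), with the highest peaks at NRL (51) and DDIT3 (49). Of 15 kinases of the MAP kinase routes to AP-1, 7 had a label (46.7%, 24.8% to 69.9%), led by RPS6KA1, which encodes a kinase below ERK, at 66 and by MAP2K3, a kinase above p38, at 45. The kinases without one were MAPK3, MAPK8, MAPK9, MAPK10, MAP2K4, MAP2K6, MAP3K1 and RPS6KA3. MAPK8, MAPK9 and MAPK10 encode the JNK kinases that phosphorylate JUN, and MAP2K4 and MAP2K7 encode kinases that activate them. Of these, MAP2K7 had a label, at a height of 33. MAPK3, MAP2K6 and RPS6KA3, also without a label, are not among these kinases.

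Factors that act at immediate early promoters carried labels in 10 of 12 cases (83.3%, 55.2% to 95.3%), with the highest peaks at CREM (45) and at SRF itself (42), and without a label at MEF2C and MKL2. Of 15 other immediate early genes, 10 had a label (66.7%, 41.7% to 84.8%), with the highest peaks at IER3 (48) and at EGR1 (44), a zinc-finger factor of monocyte differentiation. EGR3, IER2, NR4A3, DUSP1 and BTG2 had no label. Of the genes named in this paragraph without one, MEF2C, IER2 and BTG2 did have an apex within 1 kb of a start site. With that rule in place of the label, counts were 8 of 12 partners, 7 of 15 kinases, 10 of 12 factors and 11 of 15 immediate early genes. The AP-1 genes had 7 of 10 by it, and the share of all protein-coding genes was not computed. Against the 4.94% of all labelled peaks that were 2500 bp or wider, 1 of the 13 labelled peaks of the other immediate early genes reached that width (IER3, 3148 bp), as did 0 of the 7, 11 and 11 labelled peaks of the dimer partners, kinases and promoter factors. Among the myeloid markers, 2 of 7 labelled peaks did, SPI1 at 2500 bp and CEBPB at 2883 bp. Median widths in the 4 lists were 1464, 1711, 1464 and 1487 bp for partners, kinases, factors and immediate early genes, and CREB1 is in both the first and the third. Intervals here cover the counting of genes only.

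The 31 unlabelled peaks lay 3169 to 49438 bp from the centre of their AP-1 promoter peak, around 8 of the 9 genes. FOSB had 7, JUND 6, FOS and FOSL2 5 each, BATF 3, JUN and ATF3 2 each, JUNB 1 and FOSL1 none. The median was 3 per AP-1 promoter peak, with quartiles of 2 and 5, whereas it was 0 for all labelled peaks, with quartiles of 0 and 2. Having 5 or more unlabelled peaks within 50 kb applied to 4 of the 9 and to 4.35% of all labelled peaks. Having none applied to FOSL1 alone, 11.1% of the 9, and to 51.5% of all labelled peaks. Within 25 kb no AP-1 peak had 5 or more, against 0.865% of all labelled peaks, and the line at 5 was set after the counts were known. FOS and BATF lie on chromosome 14 and FOSB, JUND and JUNB on chromosome 19, and no unlabelled peak was shared between windows.

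**Figure D3:**
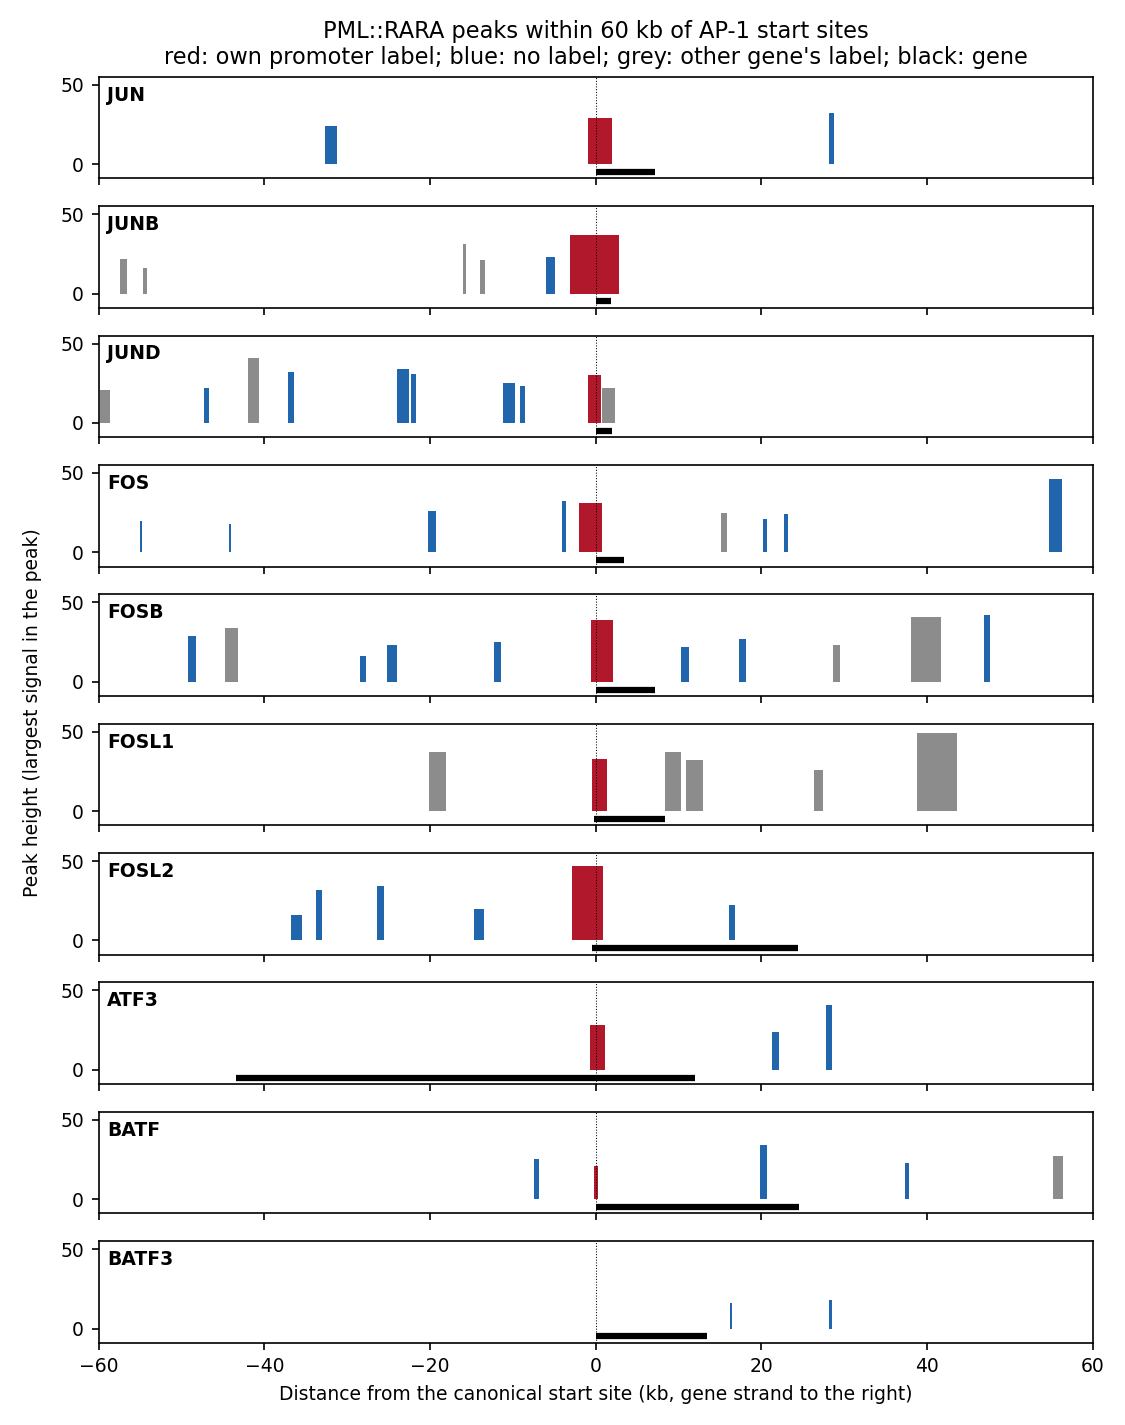
Peaks within 60 kb of the canonical start site of each of the 10 AP-1 genes (kb, direction of transcription to the right), with bar height as peak height and bar width as peak width. Red bars carry the label of the AP-1 gene, blue bars none and grey bars that of another gene, and black lines are the annotated genes over all isoforms. FOSB, JUND, FOS and FOSL2 have 5 or more blue bars within 50 kb, FOSL1 has no blue bar, and no bar overlaps BATF3.

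By their medians, the unlabelled peaks were lower and narrower than the AP-1 promoter peaks and slightly higher and wider than all unlabelled peaks. Their median height was 25 (interval 23 to 31, range 16 to 42) against 23 for all 8243 unlabelled peaks, and their median width was 798 bp (603 to 909 bp) against 634 bp. Of the 31, 23 reached the median height of all unlabelled peaks and 21 reached their median width. At the apex, 25 lay outside canonical transcripts of protein-coding genes, 5 in introns and 1 in an exon, and 2 lay within 1 kb of any protein-coding start site. The AP-1 start was the closest protein-coding start for 17 of the 31, so the other 14 lay nearer to the start of another gene. For these counts of place, the matching shares of all unlabelled peaks were not computed, so they are not a trait of AP-1 genes. A peak near a gene is not evidence of contact with its promoter.

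In 6 of the 8 loci with unlabelled peaks, at least 1 of them was higher than the promoter peak, 10 peaks in all. The matching share of all labelled peaks was not computed. AP-1 promoter peaks also had more unlabelled neighbours, with a median of 3 against 0, and so more that could be higher. The highest of all 31 were at FOSB and ATF3, and both exceeded their promoter peaks. The FOSB peak at chr19:46018154-46018838, in intron 1 of 13 of VASP, had a height of 42 (rank 1553 to 1726) and a width of 685 bp (rank 9415 to 9425). The ATF3 peak at chr1:212809849-212810637 had a height of 41 (rank 1727 to 1900) and a width of 789 bp (rank 8170 to 8182), and lay 28104 bp downstream of the canonical start. The next 3 all had a height of 34 (rank 3401 to 3708) and lay at BATF and JUND, above their promoter peaks, and at FOSL2, below its promoter peak of 47.

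Around the Jun genes, JUND had the most. Its widest and highest unlabelled peak was chr19:18414909-18416458, 23403 bp upstream of the start, at 1550 bp (rank 2318 to 2323) and height 34. The other 5 JUND peaks had heights of 32 (rank 4034 to 4396), 31 (rank 4397 to 4819), 25 (rank 7226 to 7816), 23 (rank 8433 to 9137) and 22 (rank 9138 to 9878), and in that order widths of 800 bp (rank 8036 to 8055), 537 bp (rank 11473 to 11486), 1470 bp (rank 2716 to 2722), 603 bp (rank 10524 to 10534) and 511 bp (rank 11853 to 11866). All 6 lay upstream of JUND, and the 4 most distant had LSM4 as the nearest protein-coding start. JUN had 1 on each side. The downstream one, chr1:59220988-59221508, 28359 bp from the start, was 32 in height (rank 4034 to 4396) and 521 bp wide (rank 11696 to 11716), and the upstream one, chr1:59280927-59282449, was 24 in height (rank 7817 to 8432) and 1523 bp wide (rank 2447 to 2452). JUNB had 1, chr19:12896361-12897402, 5072 bp upstream, with a height of 23 (rank 8433 to 9137) and a width of 1042 bp (rank 5561 to 5569).

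Around the Fos genes, FOSL2 carried 4 unlabelled peaks upstream and 1 in intron 3 of 4, and FOSL2 was the nearest protein-coding start for all 5. The highest, chr2:28589331-28590203, 25999 bp upstream, had a width of 873 bp (rank 7221 to 7231) and a height of 34. The peak 33368 bp upstream had a height of 32 (rank 4034 to 4396) and a width of 734 bp (rank 8810 to 8820). The widest, chr2:28578942-28580302, was 1361 bp wide (rank 3296 to 3300) with a height of only 16 (rank 14278 to 15392). The other 2 had heights of 20 (rank 10691 to 11487) at 1285 bp (rank 3753 to 3761) and, in the intron, of 22 (rank 9138 to 9878) at 687 bp (rank 9396 to 9404). Heights at this 1 gene thus ran from near the floor of the list to above 75.9% of it.

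FOS had its highest unlabelled peak closest to the gene, chr14:75741503-75741902, 3807 bp upstream, with a height of 32 (rank 4034 to 4396) and a width of 400 bp (rank 13380 to 13392). It was 1 unit higher than the FOS promoter peak. The widest was chr14:75725320-75726260, 941 bp (rank 6532 to 6542) and 26 in height (rank 6677 to 7225), 19627 bp upstream. The other 3 FOS peaks had heights of 24 (rank 7817 to 8432), 21 (rank 9879 to 10690) and 18 (rank 12401 to 13293), with widths of 548 bp (rank 11309 to 11323), 522 bp (rank 11679 to 11695) and 261 bp (rank 14902 to 14912). FOS was the nearest protein-coding start for all 5.

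FOSB, with 7, lies in a gene-dense stretch, and none of its unlabelled peaks had FOSB as the nearest protein-coding start. The widest was chr19:45946061-45947270, 24247 bp upstream, at 1210 bp (rank 4253 to 4259) and a height of 23 (rank 8433 to 9137). Besides this and the VASP peak, heights were 29 (rank 5211 to 5665), 27 (rank 6155 to 6676), 25 (rank 7226 to 7816), 22 (rank 9138 to 9878) and 16 (rank 14278 to 15392). In the same order the widths were 941 bp (rank 6532 to 6542), 881 bp (rank 7147 to 7156), 875 bp (rank 7203 to 7214), 909 bp (rank 6866 to 6873) and 667 bp (rank 9661 to 9670). The apex of the first lay in an intron of ERCC1 and that of the second in the 3′ UTR of RTN2. The first and the fourth lay 458 and 230 bp from annotated starts of ERCC1, and they were the 2 of the 31 within 1 kb of a protein-coding start.

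BATF was the gene whose unlabelled peaks exceeded its promoter peak throughout, since all 3 were both higher and wider than it. The highest and widest lay in intron 2 of 3, chr14:76008672-76009469, 20405 bp downstream of the start, with a width of 798 bp (rank 8071 to 8086) and a height of 34. The other 2 had heights of 25 (rank 7226 to 7816) and 23 (rank 8433 to 9137) and widths of 551 bp (rank 11276 to 11293) and 484 bp (rank 12271 to 12285), and the second of these had FLVCR2 as the nearest protein-coding start. ATF3 had 1 further peak, its widest, chr1:212803369-212804215, of 847 bp (rank 7504 to 7510) and height 24 (rank 7817 to 8432). Both ATF3 peaks had GARIN4 as the nearest protein-coding start.

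Some distal peaks carried an AP-1 or related site within 100 bp of the apex, and a selection is shown. In 3 FOSL2 peaks, a response element lay 92 bp, a CArG box 35 bp and an AP-1 site 27 bp from the apex. In the FOSB peak 11841 bp upstream, an AP-1 site lay 42 bp from the apex. An AP-1 site 93 bp from the apex of a FOS peak is not shown. Within 200 bp of the apex, the response element and the CArG box were each in 1 of 31 unlabelled peaks. Among all unlabelled peaks the shares were 0.704% and 1.73%. Sequences are on the plus strand, which is that of FOSL2 and FOSB, and capitals mark the site. In the last 2, as at FOSL1 above, the capitals are the AP-1 site read on the opposite strand.
FOSL2 upstream peak, chr2:28582221-28582308: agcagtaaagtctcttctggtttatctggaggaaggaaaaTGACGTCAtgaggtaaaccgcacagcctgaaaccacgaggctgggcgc
FOSL2 upstream peak of height 34, chr2:28589646-28589735: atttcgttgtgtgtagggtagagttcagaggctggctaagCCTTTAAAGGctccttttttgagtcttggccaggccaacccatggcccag
FOSL2 intron 3 peak, chr2:28632292-28632378: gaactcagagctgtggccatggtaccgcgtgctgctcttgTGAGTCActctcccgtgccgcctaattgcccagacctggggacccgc
FOSB upstream peak, chr19:45959328-45959414: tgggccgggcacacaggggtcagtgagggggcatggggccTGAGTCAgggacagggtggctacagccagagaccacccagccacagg

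A search of both strands, up to 200 bp on each side of the apex, found the AP-1 site TGACTCA in 9 of the 40 peaks, 22.5% (Wilson 95% interval 12.3% to 37.5%), and in 14.4% of the whole list. Among promoter peaks it was found in 2 of 9 (22.2%, 6.32% to 54.7%), FOSL1 and FOSL2, against 5.69% of all labelled peaks. Among unlabelled peaks it was found in 7 of 31 (22.6%, 11.4% to 39.8%), close to the 21.9% of all unlabelled peaks. The share in unlabelled peaks of AP-1 genes was thus within 1 percentage point of that in unlabelled peaks at large. The share of the 9 promoter peaks rests on 2 peaks, and its difference from that of all labelled peaks was not tested. A match of letters is a description and shows neither binding by an AP-1 protein nor recruitment of PML::RARA.

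For the other sites of immediate early genes, the matches lay mostly away from the apex. The response element TGACGTCA was within 200 bp of the apex in 1 of 9 promoter peaks (JUND), against 3.12% of labelled peaks. The octamer TGACATCA and the CArG box were in 0 of 9, against 1.05% and 1.30%. In the 400 bp upstream of the canonical start, whether or not a peak was there, 2 of the 10 AP-1 genes held the response element (JUND and FOSB), 1 the octamer (JUN) and 2 the CArG box (FOS and FOSB). In the same stretch of 19809 protein-coding genes the shares were 2.75%, 2.38% and 1.88%. The AP-1 site was in none of the 10 there and in 4.81% of the genes. In each of these 4 genes the site lay inside the PML::RARA promoter peak. Over whole peaks, the response element was in 2 of the 9 AP-1 promoter peaks (JUND and FOSB), against 4.78% of labelled peaks, and the octamer in 2 (JUN and FOS), against 2.62%. The CArG box was in 3 (FOS, JUNB and FOSB), against 4.20%, and the AP-1 site in 3 (FOSL2, FOSL1 and JUNB), against 13.5%. Whole peaks differ in width, and a wider peak holds more sequence to match.

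Sites of factors that work beside PML::RARA in myeloid cells showed a mixed picture. The PU.1-type site GAGGAAG was within 200 bp of the apex in 4 of 9 promoter peaks (44.4%, 18.9% to 73.3%), namely JUN, ATF3, FOSL2 and FOSL1, against 20.8% of labelled peaks, and in 12 of 31 unlabelled peaks (38.7%, 23.7% to 56.2%) against 33.2%. The ETS site CGGAAG, which shares its GGAAG core with the former but differs before it, was in 2 of 9 (22.2%) against 39.5%, and in 6 of 31 (19.4%) against 16.2%. The RUNX site TGTGGT was in 1 of 9 promoter peaks against 15.4%, and in 6 of 31 unlabelled peaks (19.4%, 9.19% to 36.3%) against 40.3%. The RUNX share of the 31 unlabelled peaks was below that of all unlabelled peaks, but this was not tested. These peaks came from 8 loci, and peaks near each other are not independent.

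The motif AGGTCA, of which retinoic acid receptors bind a pair, was in 0 of 9 promoter peaks (interval up to 29.9%) against 16.6% of labelled peaks, and in 6 of 31 unlabelled peaks (19.4%) against 28.8%. Direct repeats of a looser form of it, with 0 to 5 bp between, were in 0 of the 40, against 0.921% of labelled and 1.92% of unlabelled peaks. Outside the 200 bp, 1 such repeat was in the JUN peak, 603 bp from its apex and 1089 bp downstream of the start. The windows of AP-1 promoter peaks had a median GC content of 67.3% against 64.3% in all labelled peaks, and those of the unlabelled peaks 59.4% against 52.9%. The part of base composition in these motif shares was not tested.

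**Figure D4:**
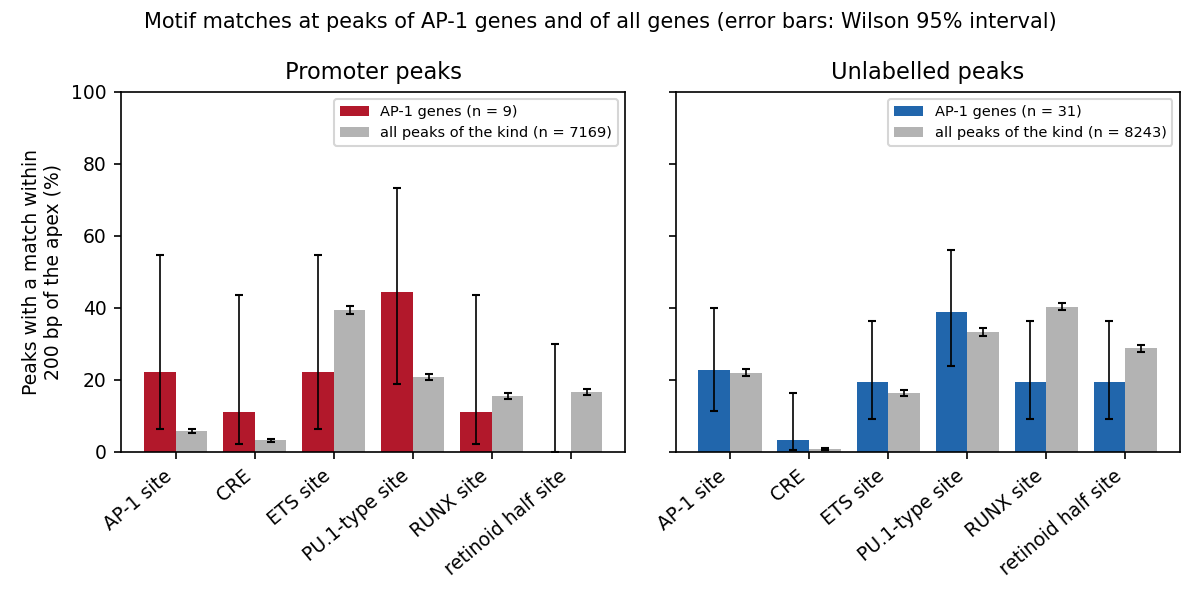
Share of peaks (%) with a match within 200 bp of the apex for 6 sites (the retinoid site is AGGTCA), in the 9 AP-1 promoter peaks (red) and 31 unlabelled peaks near them (blue), beside all 7169 labelled and all 8243 unlabelled peaks (grey), with Wilson 95% intervals as error bars. Intervals of the 9 promoter peaks are wide, and the RUNX site is at 19.4% in the blue bar against 40.3% in the grey one.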

How the data were processed

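Cut&Run libraries of induced U937-PR9 cells with the anti-PML::RARA antibody, 2 replicates, were analysed as the 1 list of peaks made from them. The authors used Trimmomatic for trimming, Bowtie2 for alignment to hg19, Samtools to drop duplicates and Bedtools to drop blacklisted reads. Peaks were called by SEACR with the paired control and the "norm union" setting, and were kept at an IDR below 0.05. Tool versions are not given in the sources used here. The authors deposited for each peak a score, read here as the largest signal in the peak and named height, and a column named as a summit, read here as the total signal. Both readings rest on the values, since the total was at most height times width in all 15412 peaks. Whether the signal was scaled, and whether it is of 1 replicate or pooled reads, is not stated. Gene symbols were given by the authors where the apex overlapped a promoter of the UCSC known genes. No column held values of other samples.

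From the list, ranks, medians with order-statistic 95% intervals and shares with Wilson 95% intervals were computed. They cover the counting of peaks or genes only, not replicate error, and peaks near each other are not independent. Start sites and gene parts came from GENCODE release 44 on GRCh37, the same assembly as hg19, at the apex, which is the midpoint of the interval of largest signal. Motifs were searched in the GRCh37 sequence. MKL1 and MKL2 were also matched by their current symbols MRTFA and MRTFB. No test was run, because each peak has 1 value. All 10 members are named with every labelled peak, and of the lists the highest 2 and the genes without a label, which for the dimer partners are not reported here. The rank of every unlabelled peak is given, with position for the highest and widest of each gene, the highest 5 and those whose sequence is shown. The members and lists were chosen with earlier results of these data known. Alternatives were other windows, thresholds, definitions of a promoter, summaries and merged peaks. The rank, interval and motif code was tested on simulated data. Computation used Python 3.11.15 with pandas 2.3.3, numpy 2.4.6 and scipy 1.17.1, figures matplotlib 3.10.9, and sequence samtools 1.23.1 and pysam 0.24.0.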

Additional observations from a re-analysis of the deposited data

How the results depend on the processing

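Of 28 alternatives over 8 results, 25 left the value within 1.5 times, or within its interval. The number of AP-1 genes with a promoter peak was 7 with an apex within 1 kb of a start site, and 8 when peaks below the list's median height, or below its median width, were dropped. The number of peaks ran from 27 with 25 kb windows to 55 with 100 kb windows, and was 22 without the peaks below the median height. Median promoter height was 31 and its mean 32.8, and median width was 2794 bp when peaks under 1 kb apart were merged. The share of AP-1 peaks with an AP-1 site was 12.5% within 100 bp and 27.5% over whole peaks, against 10.5% and 21.3% of all peaks. The following were added after seeing the data. The number of AP-1 promoter peaks of 2500 bp or wider was 6 in the merged list, with 7.92% of labelled peaks there, and 2 at 3000 bp or wider. The number with 5 or more unlabelled peaks near was 0 with a 25 kb window, 5 with a 100 kb window, where 13.2% of labelled peaks had as many, and 3 after merging, against 2.22% of labelled peaks. Taking the highest or widest promoter peak of each gene could not change a value, since each had 1. Replicates could not be left out in turn, since none has values of its own, and unknown depth limits every absent peak to being below the authors' thresholds. No paired analysis was possible because replicates have no separate values here.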

Other observations

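Peaks labelled with other genes also lay within 50 kb of the AP-1 promoter peaks, 13 peaks of 11 genes, with a median of 1 per AP-1 promoter peak and of 1 per labelled peak in all. FOSL1, which had no unlabelled peak, had 5 of them, at CFL1, EFEMP2, FIBP (2 peaks) and C11orf68. The CFL1 peak, at the gene of the actin-severing protein cofilin, was 4830 bp wide and 49 in height, above the FOSL1 promoter peak in both. The JUND window held LSM4 at a height of 41 beside MIR3188, and the FOSB window held VASP at 41 with a width of 3587 bp, ERCC1 at 34 and RTN2 at 23. HOOK2 had 2 peaks near JUNB and LINC01220 had 1 near FOS.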
